A study of Mus musculus with 16 samples.

Results

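Transcripts of 9 genes of myelin and of the oligodendrocyte, the cell that wraps axons of the brain in myelin, were followed in aged mice: Mbp, Mog, Mag, Mobp, Cnp, Mal, Ndrg1, Cldn11 and Ugt8a. They were taken as the probe sets whose single gene symbol in the array annotation was one of these names, which gave 28 probe sets, of which 27 were used, and 9 of the 18168 genes measured. No filter on low values was applied, so all 9 were tested. The arrays came from cerebellum and hippocampus of mice overexpressing a mutant form of Twinkle, the helicase that unwinds mitochondrial DNA for its replication, and of wild-type mice. These transgenic mice are a model of progressive external ophthalmoplegia, a mitochondrial eye muscle disease. There were 16 arrays in 4 groups of 4. Wild-type mice of replicates 1 to 4 were 26, 24, 21 and 23 months old and mutants were 24, 24, 21 and 21 months old, the same ages in both regions. The promoter of the transgene, the strain and the sex are not stated in the labels. The labels name the replicates biological, without saying whether the 2 regions of a number came from 1 mouse.

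Myelin is a stack of glial membrane pressed together by proteins such as MBP and MOBP, rich in the galactolipids that UGT8 makes, and sealed at its edges by claudin-11. MOG sits on its outer face, MAG faces the axon, and CNP keeps the cytoplasmic channels of the sheath open. Oligodendrocytes arise from precursor cells, switch on these genes together under SOX10 and MYRF, and depend on mitochondria while they build the membrane.

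The deposited values were relative. In 99.9% of probe sets of each region, the median over the region's 8 arrays was 0 within 1e-05, so a value says how far an array lay from the median array on a log scale, taken as log2. No level is left, genes cannot be ranked by abundance, hippocampus cannot be set against cerebellum, and the labelled tissue could be checked only by how marker lists moved between arrays. Twnk, the gene of Twinkle, was measured by 1 probe set. It lay at 0.03 ± 0.06 in mutant and -0.04 ± 0.07 in wild-type cerebellum, and at 0.01 ± 0.02 in mutant and -0.05 ± 0.07 in wild-type hippocampus (SD, n = 4). The difference was 0.06 (SE 0.05) in both regions, with limma adjusted p = 0.91 and 0.77, and whether this probe set detects the transgene was not tested. The spread of all genes on an array (SD) was 0.26 on wild-type hippocampus replicate 1, the widest in its region, and 0.17 on wild-type cerebellum replicate 3, the widest in the other.

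The stretches before the start sites of 4 members are shown because the members varied together across the hippocampus arrays, as described further on, and these 4 of the 7 members searched held a match to the motifs below. The other 3 searched, which held none, are not shown. Capitals mark matches on either strand to ACAAAG, the core of SOX sites, and to CTGGCAC or CTGGTAC, the core of MYRF sites. The cores do not overlap one another here. The sequences are from RefSeq (GRCm38.p6), run 5′ to 3′ on the strand of the gene and cover the 250 bases before the start. They are chr9:120149492-120149741 on the plus strand, chr11:100574689-100574938 on the plus strand, chr7:30914864-30915113 on the minus strand and chr17:37023399-37023648 on the minus strand.
Mobp: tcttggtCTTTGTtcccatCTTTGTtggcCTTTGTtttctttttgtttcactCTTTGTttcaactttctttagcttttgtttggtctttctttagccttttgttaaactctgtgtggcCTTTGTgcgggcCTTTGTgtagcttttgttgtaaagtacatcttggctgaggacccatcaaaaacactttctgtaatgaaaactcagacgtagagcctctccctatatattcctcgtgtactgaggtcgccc
Cnp: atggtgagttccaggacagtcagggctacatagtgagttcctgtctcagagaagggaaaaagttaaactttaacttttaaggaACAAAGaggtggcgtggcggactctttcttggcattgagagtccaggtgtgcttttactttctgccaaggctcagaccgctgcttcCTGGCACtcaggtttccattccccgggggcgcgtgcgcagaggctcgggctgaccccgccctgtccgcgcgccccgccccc
Mag: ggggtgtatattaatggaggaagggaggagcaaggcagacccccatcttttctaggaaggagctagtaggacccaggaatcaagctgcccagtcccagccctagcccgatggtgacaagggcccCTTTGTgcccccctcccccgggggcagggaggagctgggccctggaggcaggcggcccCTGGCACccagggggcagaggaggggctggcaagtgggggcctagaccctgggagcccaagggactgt
Mog: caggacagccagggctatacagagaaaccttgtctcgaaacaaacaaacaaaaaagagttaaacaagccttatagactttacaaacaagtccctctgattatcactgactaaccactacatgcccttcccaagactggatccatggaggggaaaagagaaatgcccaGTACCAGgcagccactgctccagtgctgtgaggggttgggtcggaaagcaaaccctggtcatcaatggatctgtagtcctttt

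The Mobp stretch holds 6 SOX cores, all on the opposite strand. Cnp and Mag each hold 1 SOX core and 1 MYRF core, and Mog holds 1 MYRF core. In windows of 300 bases, from 250 before to 50 after a start, 3 of the 7 members searched had the SOX core and 3 of 7 had a MYRF core. Among all 32851 such windows, 18.7% had the SOX core, 7.1% a MYRF core and 1.44% both. A member was counted when any of its windows held the core, so these shares of single windows are an unlike measure. Mag has several starts in the table, and the one shown is the first. These are matches of letters and describe no binding. Ndrg1 and Mbp were not searched.

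In the cerebellum, none of the 9 genes differed between mutant and wild-type mice beyond the spread of the arrays. The largest differences were lower values in mutants, -0.16 for Cnp (SE 0.12) and -0.12 for Cldn11 (SE 0.16), and the other 7 lay between -0.08 for Mag and 0.01 for Mal. Of the 9 differences, 8 were below 0, against 46.4% of all genes, and their median was -0.03 against 0.01 over all genes. No member passed limma's adjusted p of 0.05, as no gene did (0%), and 0 of 9 had an unadjusted p under 0.05, against 5.39% of all genes. The smallest adjusted p of a member was 0.90, for Cnp. Genotypes overlapped for all 9 members, while they did not overlap for 2.46% of all genes. A difference in a whole tissue piece cannot tell fewer oligodendrocytes from less RNA per oligodendrocyte.

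**Figure D1:**
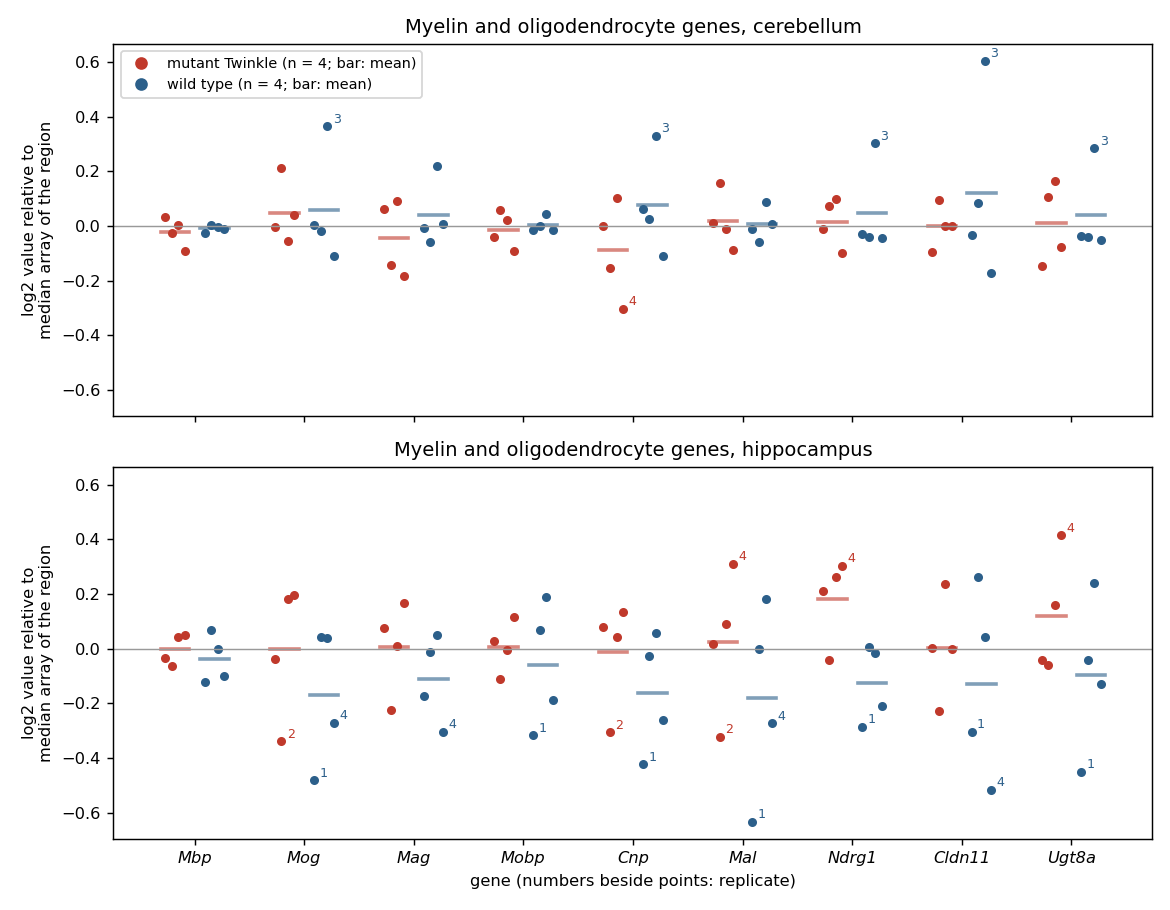
Values of the 9 myelin and oligodendrocyte genes on every array, on the log2 scale relative to the median array of the region, for cerebellum (top) and hippocampus (bottom). Points are arrays, bars are group means (n = 4), and numbers give the replicate of arrays at the extremes. Wild-type replicate 3 stands high in the cerebellum, and wild-type replicates 1 and 4 stand low in the hippocampus.

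In the cerebellum, wild-type replicate 3 was the highest array for most members and mutant replicate 4 the lowest. Cnp, the phosphodiesterase of uncompacted myelin, lay at 0.0010, -0.15, 0.10 and -0.30 in mutant replicates 1 to 4 and at 0.06, 0.02, 0.33 and -0.11 in wild types. Cldn11, the tight junction protein between the lamellae, lay at -0.10, 0.09, 0.00094 and -0.00094 in mutants and at -0.03, 0.09, 0.60 and -0.17 in wild types. Both genes were thus highest in wild-type replicate 3, and the remaining arrays of the genotypes lay among each other. That array was the highest of the 8 for 6 of the 9 members, and the mean of the 9 was 0.25 there, against -0.10 to 0.05 on the other 7 arrays. Without it the Cldn11 difference turned to 0.04 and that of Cnp was -0.08. Differences of Mog, Ndrg1 and Ugt8a also turned above 0 without it, to 0.09, 0.05 and 0.05.

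Mutant replicate 4 stood at the other end and was the lowest array for 6 of the 9 members. Its choroid plexus markers were at -1.56 and its ependymal markers at -0.40, both the lowest of the 8 cerebellum arrays, which otherwise lay between -0.44 and 0.70 for the choroid plexus list and between -0.14 and 0.30 for the ependymal one. On wild-type replicate 3 these lists were at -0.15 and -0.09, and their part in the members' values was not tested. The 3′ minus 5′ value of the actin control probe sets, a reading of RNA quality, was highest on these 2 arrays. It was 0.14 on mutant replicate 4, 0.11 on wild-type replicate 3 and from -0.07 to 0.05 on the others. That of Gapdh was 0.0037 and -0.01 on the 2 arrays, within the range of the others. The part of RNA quality was not tested either. Mog, the antigen of the outer myelin face, lay at -0.0042, 0.21, -0.05 and 0.04 in mutants and at 0.0042, -0.02, 0.37 and -0.11 in wild types, with the groups interleaved. Ugt8a, the enzyme of galactosylceramide synthesis, lay at -0.15, 0.11, 0.17 and -0.08 in mutants and at -0.03, -0.04, 0.28 and -0.05 in wild types, so mutants lay on both sides of 3 of the 4 wild types. Ndrg1, a cytoplasmic protein of myelinating glia whose loss causes a demyelinating neuropathy, lay at -0.01, 0.07, 0.10 and -0.10 in mutants and at -0.03, -0.04, 0.30 and -0.04 in wild types. Mag, Mobp, Mal and Mbp ranged from -0.18 to 0.22 over all 8 arrays. Mbp varied least, with an SD of 0.04 over the 8 arrays, lower than all but 1.09% of genes. Its value is a mean over 7 probe sets, and averaging can narrow a spread. Single Mbp probe sets had SDs from 0.05 to 0.13, where the median gene had 0.10.

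Probe sets of 1 gene did not always take the same side in the cerebellum. Among the 27 used, 11 lay above 0, against 50.2% of all probe sets. The 7 Mbp probe sets used ran from -0.12 to 0.06 and the 5 of Ndrg1 from -0.17 to 0.20. Of the 3 Cnp probe sets, 2 were at -0.25 and -0.26 and the third was at 0.02.

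In the hippocampus all 9 genes lay higher in mutants on average, and none passed the adjusted threshold. Ndrg1 differed most, by 0.31 (SE 0.09), followed by Ugt8a at 0.21 (SE 0.13), Mal at 0.21 (SE 0.14), Mog at 0.17 (SE 0.14) and Cnp at 0.15 (SE 0.12). Cldn11 differed by 0.13 (SE 0.16), Mag by 0.12 (SE 0.10), Mobp by 0.07 (SE 0.09) and Mbp by 0.04 (SE 0.05). The share of all genes above 0 was 58.9%, and the median difference was 0.15 for the 9 members and 0.02 over all genes. No member and no gene had a limma adjusted p under 0.05 (0%), and 1 of 9 members had an unadjusted p under 0.05, against 8.03% of all genes. The genotypes overlapped for all 9 members, while 4.76% of all genes had no overlap.

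Ndrg1 was the member nearest to a difference. It lay at 0.21, -0.04, 0.26 and 0.30 in mutant replicates 1 to 4 and at -0.29, 0.0074, -0.02 and -0.21 in wild types. The 3 highest arrays were mutants, and only mutant replicate 2 fell among the wild types. The difference of 0.31 had a 95% confidence interval from 0.11 to 0.51, an unadjusted p of 0.0046 and a limma adjusted p of 0.43. Leaving out each array in turn moved it between 0.26 and 0.38, and the smallest adjusted p was then 0.33. Without the 4 arrays with raised markers of neighbouring tissue, described further on, it was 0.03, in a fit that holds 1 mutant array.

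All 5 Ndrg1 probe sets gave differences of like size in the hippocampus, from 0.27 to 0.34. They share the transcript and the RNA of each array, so they are no replicates. Set against the mean of the other 8 members on the same array, Ndrg1 was higher by 0.20, 0.16, 0.17 and 0.13 in mutant replicates 1 to 4. In wild types the same quantity was 0.08, -0.04, -0.12 and 0.05. On this relative scale every mutant lay above every wild type, including mutant replicate 2, where Ndrg1 itself was low. No test was made of this quantity, which was formed after the values were seen, for the member of largest difference. How many genes or other members separate on such a scale was not counted. On their own values 4.76% of all genes separated.

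**Figure D2:**
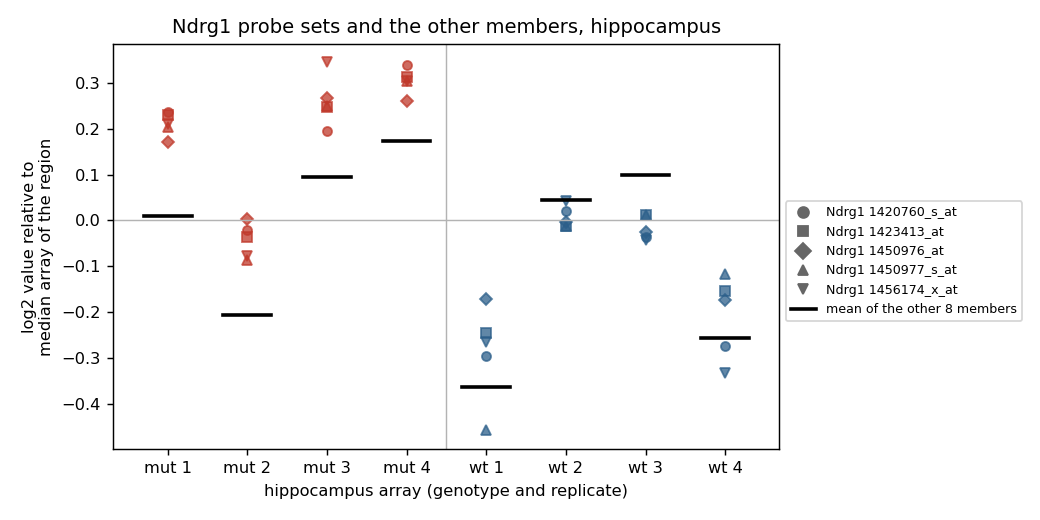
Each of the 5 Ndrg1 probe sets on the 8 hippocampus arrays (symbols), with the mean of the other 8 members on the same array (black bars), on the log2 scale relative to the median array. In the 4 mutants the probe sets lie above the bar by 0.13 to 0.20 on average, and in wild types from 0.12 below it to 0.08 above it. This comparison was chosen after the values were seen and was not tested.

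Among the genes of the compacted membrane, Mal differed by 0.21, much like Ugt8a, and Mobp and Mbp differed less, by 0.07 and 0.04. Mal, a proteolipid of compact myelin, lay at 0.02, -0.32, 0.09 and 0.31 in mutants and at -0.63, -0.0011, 0.18 and -0.27 in wild types. Mobp lay at 0.03, -0.11, -0.0037 and 0.12 in mutants and at -0.32, 0.07, 0.19 and -0.19 in wild types. Mbp lay at -0.03, -0.06, 0.04 and 0.05 in mutants and at -0.12, 0.07, 0.00010 and -0.10 in wild types. For these 3 genes wild-type replicates 1 and 4 and mutant replicate 2 were low, and wild-type replicates 2 and 3 lay within or above the mutant range. Without wild-type replicate 1, the difference was 0.06 for Mal and turned to -0.02 for Mobp.

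Transcripts of claudin-11, which seals the layers, had a wide spread among wild types. Its gene Cldn11 lay at 0.00041, -0.23, 0.24 and -0.00041 in mutants and at -0.30, 0.26, 0.04 and -0.52 in wild types. The difference was 0.0018 without wild-type replicate 4 and 0.26 without wild-type replicate 2. The probe sets of Mbp ran from -0.07 to 0.12 and those of Mobp from 0.01 to 0.11. Over all members, 25 of the 27 probe sets used were above 0, with 55.3% of all probe sets on that side, and the 2 below 0 were both of Mbp.

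The genes of the surface and channel proteins followed the same arrays. Mog lay at -0.04, -0.34, 0.18 and 0.20 in mutants and at -0.48, 0.04, 0.04 and -0.27 in wild types. Mag, the glycoprotein on the inner face toward the axon, lay at 0.07, -0.22, 0.01 and 0.17 in mutants and at -0.17, -0.01, 0.05 and -0.31 in wild types. Cnp lay at 0.08, -0.31, 0.04 and 0.14 in mutants and at -0.42, -0.03, 0.06 and -0.26 in wild types. Mutant replicate 2 and wild-type replicates 1 and 4 were the 3 lowest arrays for each of these genes.

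Ugt8a lay at -0.04, -0.06, 0.16 and 0.41 in mutants and at -0.45, -0.04, 0.24 and -0.13 in wild types. The highest array was mutant replicate 4 and the lowest wild-type replicate 1, with the 6 others mixed. The 2 Ugt8a probe sets differed by 0.21 each. Its difference of 0.21 had an interval from -0.07 to 0.49 and a limma adjusted p of 0.69.

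**Figure D3:**
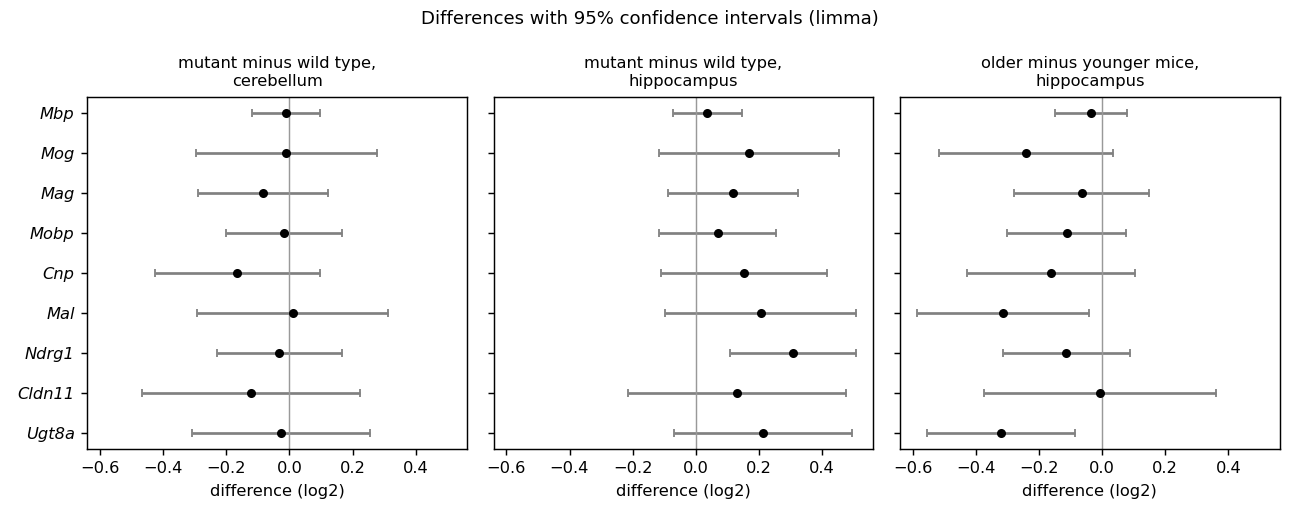
Differences of the 9 genes with 95% confidence intervals from limma, on the log2 scale, for mutant minus wild type in cerebellum and in hippocampus and for older minus younger mice in hippocampus. In the genotype comparisons the interval of Ndrg1 in hippocampus is the only one without 0, and in the age comparison those of Mal and Ugt8a are.

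The members were high or low together on an array in the hippocampus. All 9 were below 0 on mutant replicate 2 and on wild-type replicates 1 and 4, and 8 of 9 were above 0 on mutant replicates 3 and 4 and on wild-type replicate 3. The mean of the 9 was 0.03, -0.19, 0.11 and 0.19 on the mutant arrays and -0.35, 0.04, 0.09 and -0.25 on the wild-type arrays. The groups thus overlap also in this mean. Wild-type replicate 1 was the lowest array for 7 members and mutant replicate 4 the highest for 6.

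Markers of neighbouring tissue moved with some of the same hippocampus arrays. On wild-type replicate 1 the mean of the 8 measured cerebellar granule neuron markers was 2.71, that of 5 Purkinje cell markers 1.36 and that of 8 choroid plexus markers 0.95, with 8 hippocampal excitatory neuron markers at -0.73. On mutant replicate 4 the choroid plexus markers were at 2.16, and the 8 ependymal markers at 0.55. Mutant replicate 3 had ependymal markers at 0.58, and mutant replicate 1 had 9 meningeal markers at 0.89 and granule neuron markers at 0.97. None of the granule neuron, choroid plexus, ependymal and meningeal lists was over 0.5 on mutant replicate 2 or wild-type replicates 2, 3 and 4.

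Over the groups, the granule neuron list ranged from -0.20 to 0.97 in mutants and from -0.29 to 2.71 in wild types. The choroid plexus list ranged from -0.40 to 2.16 in mutants and from -0.41 to 0.95 in wild types. Ependymal markers were from 0.0021 to 0.58 in mutants and from -0.32 to -0.02 in wild types. The 4 blood cell markers were from -0.28 to -0.05 in mutants and from 0.06 to 0.63 in wild types. The meningeal and fibroblast markers were from -0.05 to 0.89 in mutants and from -0.31 to -0.06 in wild types. The ependymal, blood cell and meningeal list means did not overlap between the genotypes, a separation that 4.76% of single genes had. Of single markers, 7 of 8 ependymal and 9 of 9 meningeal ones were higher in mutants, against 58.9% of all genes. Of blood cell markers 3 of 4 were lower. The 4 measured markers of Schwann cells, which make several of the same myelin proteins in nerves, stayed between -0.04 and 0.07. Astrocyte markers (8) lay between -0.14 and 0.29 and microglial markers (8) between -0.13 and 0.25, both highest on wild-type replicate 1. Since values are relative, no marker can be said to be absent.

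Without the 4 hippocampus arrays whose neighbouring-tissue markers were raised, 8 of the 9 differences turned below 0. Mal was then at -0.29, Mog at -0.28, Cnp at -0.23, Cldn11 at -0.16, Mobp and Mag at -0.14 and -0.13, Ugt8a at -0.08 and Mbp at -0.05, while Ndrg1 was at 0.03. That fit keeps mutant replicate 2 alone, which limma assumes to vary like the other groups, against wild-type replicates 2, 3 and 4. The genotypes also differ in age, and with age in months as a covariate Ndrg1 was at 0.26, Ugt8a at 0.09, Mal at 0.07 and Mobp at 0.0036, all 9 still above 0.

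**Figure D4:**
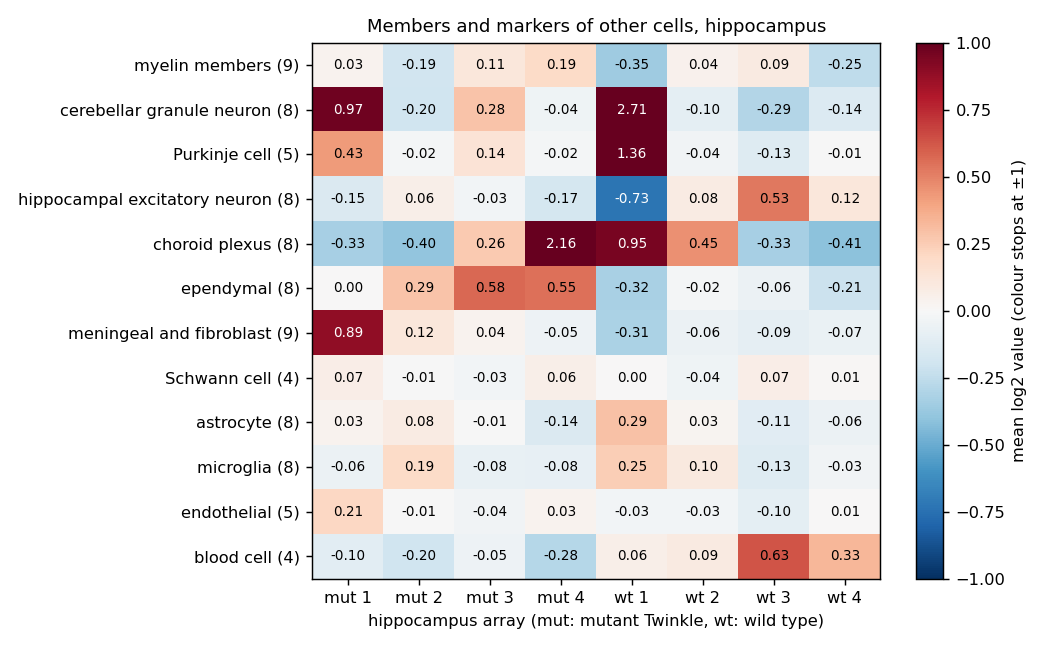
Mean log2 value, relative to the median array, of the 9 members (top row) and of marker lists of other cells on the 8 hippocampus arrays, with the number of measured genes in brackets and colours stopping at 1 and -1. The members are lowest on wild-type replicate 1, where granule neuron markers reach 2.71, and are low on wild-type replicate 4 and mutant replicate 2, where no list of neighbouring tissue is raised over 0.5.

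The genotype effect itself was compared between regions as hippocampus minus cerebellum. All 9 members were above 0, against 54.9% of all genes, with a median of 0.20 for the members and 0.01 over all genes. Ndrg1 differed by 0.34 (SE 0.13, unadjusted p = 0.021, limma adjusted p = 0.87) and Cnp by 0.32 (SE 0.18, limma adjusted p = 0.87). Cldn11, Ugt8a, Mag, Mal and Mog lay between 0.18 and 0.25, Mobp at 0.09 and Mbp at 0.05. No member or gene passed the adjusted threshold (0%), and 1 of 9 members had an unadjusted p under 0.05, against 5.35% of all genes. A region difference in the genotype effect on these genes was therefore not detected.

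Age entered the design because replicates 1 and 2 of each group were 24 months or older and replicates 3 and 4 were 23 months or younger. Older hippocampi had lower mean values of all 9 genes, against 54.7% of all genes, with a median of -0.11 for the members and -0.01 over all genes. Ugt8a was lower by -0.32 (SE 0.11, unadjusted p = 0.011, limma adjusted p = 0.64) and Mal by -0.31 (SE 0.13, unadjusted p = 0.027, limma adjusted p = 0.73). Mog was at -0.24 (SE 0.13), Cnp at -0.16 (SE 0.12), and Mobp and Ndrg1 at -0.11, while Mag, Mbp and Cldn11 lay between -0.06 and -0.0077. No member or gene passed the adjusted threshold (0%), and 2 of 9 members had an unadjusted p under 0.05, against 6.55% of all genes.

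Ugt8a lay between -0.45 and -0.04 in the 4 older and between -0.13 and 0.41 in the 4 younger hippocampi, and only the 23-month wild type reached into the older range. Mal lay at 0.02, -0.32, -0.63 and -0.0011 in the older and at 0.09, 0.31, 0.18 and -0.27 in the younger mice, in the order mutant then wild type. The age classes overlapped for all 9 members, while they did not for 3.5% of all genes. Without wild-type replicate 1, the oldest mouse, Mal was at -0.19 and Ugt8a at -0.24. Granule neuron markers were raised on 2 of the 4 older hippocampus arrays, and their part in these values was not tested. Age class and any handling that split the replicates the same way cannot be told apart.

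In the cerebellum the same age comparison gave no direction. Of 9 members, 6 were below 0, against 47.4% of all genes, from -0.11 for Ugt8a (SE 0.11) to 0.02 for Mal (SE 0.13). No member or gene passed limma's adjusted threshold (0%), none of the 9 members had an unadjusted p under 0.05, against 4.21% of all genes, and the age classes overlapped for all 9, against 2.26% of all genes without overlap.

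How closely the members follow one another was described by the correlation of each with the mean of the other 8 over a region's 8 arrays. In the hippocampus Pearson's r was 0.97 for Mog and Cnp, 0.96 for Mal, 0.91 for Mobp, 0.90 for Mbp, 0.88 for Mag, 0.86 for Ndrg1 and Ugt8a, and 0.75 for Cldn11. Spearman's rho ran from 0.60 for Cldn11 to 0.95 for Ugt8a. Without wild-type replicates 1 and 4, the 2 arrays farthest from the median, r was between 0.49 for Cldn11 and 0.97 for Mog. The arrays share their normalization and dissection with all other genes, so these values describe 8 arrays only.

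In the cerebellum the members followed one another less evenly. Pearson's r was 0.98 for Ndrg1, 0.84 for Cldn11 and Ugt8a, 0.76 for Cnp, 0.72 for Mog and Mobp, 0.67 for Mag, 0.56 for Mal and 0.32 for Mbp. Spearman's rho ran from 0.21 for Mbp to 0.93 for Ndrg1. The 2 farthest arrays were wild-type replicate 3 and mutant replicate 4 for 8 of the members. Without them r was 0.89 for Ndrg1, 0.74 for Mobp, 0.70 for Ugt8a and 0.54 for Cldn11. It was 0.33 for Mog, 0.25 for Mal, -0.26 for Mbp and -0.38 for Mag. The relation of Mbp and of Mag to the others thus rests on those arrays, and that of Mog and of Mal was weaker without them. For Cnp the 2 farthest were wild-type replicate 3 and mutant replicate 2, and r was 0.88 without them. The SD of Cldn11, measured by 1 probe set, was 0.24 over the 8 arrays, larger than that of 97.3% of genes. In the hippocampus 8 of the 9 members had SDs from 0.16 to 0.31, where the median gene had 0.10. Mbp, a mean over 7 probe sets, had 0.07.

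The genes outside the members whose values tracked the mean of the 9 most closely over the 8 hippocampus arrays were Trim59 (r = 0.98), Plekhh1 (r = 0.98), Timm44 (r = 0.96), Qdpr (r = 0.96) and Ttyh2 (r = 0.96). Without the 2 farthest arrays their r lay between 0.90 and 0.98. Timm44 ranged only from -0.03 to 0.03 over these arrays and had a Spearman's rho of 0.71, where the others had 0.90 or more. Over the 8 cerebellum arrays the closest genes were Rab5c, Maml1, Mtch1, Npdc1 and Lamp1, with r from 0.97 to 0.98. Without the 2 farthest arrays it was from 0.67 to 0.94. In each region these genes were picked for the highest r on the same arrays, so a high r follows from the choice. The values without the 2 farthest arrays reuse those arrays and are no independent check.

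Other genes of the oligodendrocyte lineage were grouped in 5 lists holding 70 genes, of which 64 were measured. The others were not analysed here. In the hippocampus, 30 of the 64 had an r above 0.7 with the mean of the members (46.9%), against 4.61% of all genes outside the members. The median r of the 64 was 0.65, and 0.45 without the 2 farthest arrays, wild-type replicates 1 and 4. For the transcription factors it went from 0.52 to 0.16 and for the lipid and metabolic enzymes from 0.78 to 0.74. The share was 9 of 13 among lipid and metabolic enzymes, 11 of 17 among receptors and secreted or cytoplasmic proteins, 6 of 14 among other myelin structure genes, 4 of 10 among transcription factors and 0 of 10 among precursor genes. In the cerebellum it was 11 of 64 (17.2%), against 7.12%.

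**Figure D5:**
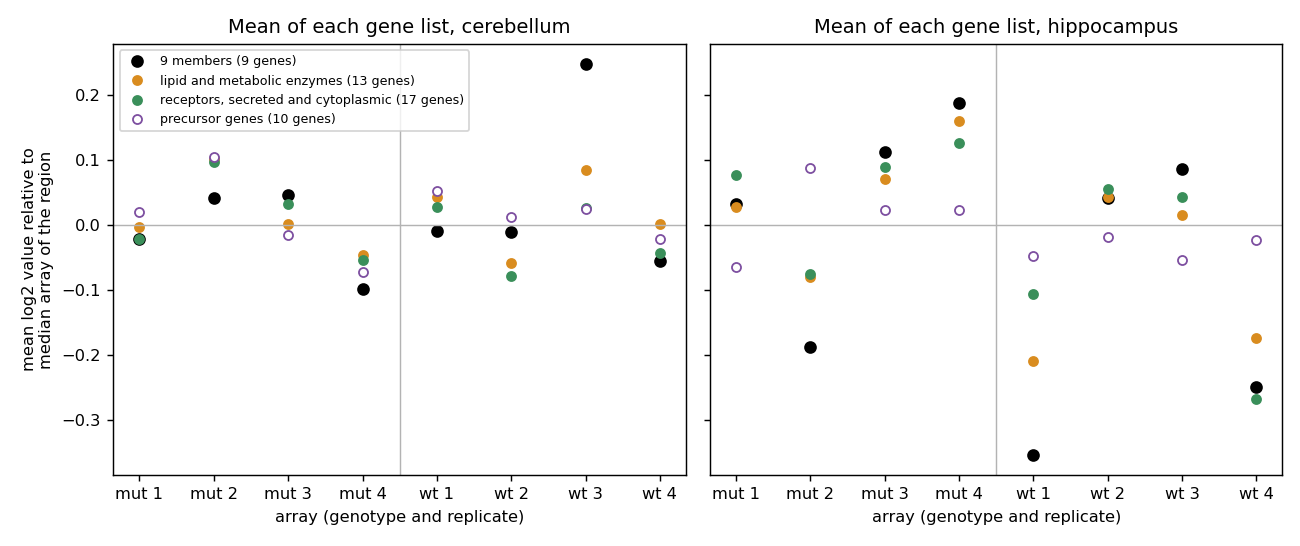
Mean log2 value per array, relative to the median array of the region, of the 9 members and of 3 further oligodendrocyte lists, in cerebellum (left) and hippocampus (right). In the hippocampus the enzymes and receptors are below 0 with the members on mutant replicate 2 and wild-type replicates 1 and 4, whereas precursor genes stay between -0.06 and 0.09.

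Between genotypes in the hippocampus, 53 of the 64 further genes were above 0, against 58.9% of all genes. Their median was 0.09, against 0.02 over all genes. None passed limma's adjusted threshold, and 7 of 64 had an unadjusted p under 0.05 (6 higher, 1 lower), against 8.03% of all genes. Among enzymes of myelin lipids and metabolism 13 of 13 were above 0, by up to 0.31. The smallest p were those of Car2, a carbonic anhydrase of oligodendrocytes, at 0.20 (SE 0.07, limma adjusted p = 0.49), and Gal3st1, which sulfates the galactolipid that UGT8 makes, at 0.22 (SE 0.08, limma adjusted p = 0.52). Among other structure and junction genes 11 of 14 were above 0, with Opalin, a membrane glycoprotein of the myelin paranode, at 0.22 (SE 0.09) and Pllp, a proteolipid of myelin, at 0.18 (SE 0.11). Receptors and secreted or cytoplasmic proteins had 15 of 17 above 0, with Ninj2, an adhesion molecule, at 0.27 (SE 0.10) and Il33, a nuclear alarmin, at 0.21 (SE 0.10).

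The transcription factor list held the smallest p among these genes. Nkx2-2, a homeodomain factor of the oligodendrocyte lineage, lay at 0.32, 0.09, 0.34 and 0.26 in mutants and at -0.37, -0.09, -0.20 and -0.41 in wild types. Every mutant hippocampus was above every wild type, a separation that 4.76% of all genes had. The difference was 0.52 (SE 0.11, unadjusted p = 0.00029, limma adjusted p = 0.23), and in the cerebellum it was -0.03 (SE 0.11). St18, a zinc finger factor, was at -0.28 (SE 0.10, limma adjusted p = 0.51), and 7 of the 10 factors were above 0. Of precursor genes 7 of 10 were above 0, with Gpr17, a receptor of committed precursors, at 0.27 (SE 0.15) and Pdgfra, the growth factor receptor of precursors, at 0.13 (SE 0.08).

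In the cerebellum 32 of the 64 further genes were above 0 and 32 below, where 46.4% of all genes were below 0. Their median was -0.0016, against 0.01 over all genes. There was no adjusted call, and 1 unadjusted p under 0.05, against 5.39% of all genes. That gene was Elovl1, a fatty acid elongase, at 0.18 (SE 0.08, limma adjusted p = 0.88). Carns1, which makes carnosine, was at -0.13, and the junction genes Cntn2 and Gjc3 were at -0.16 and -0.08. The transcription factors Sox8 and Myrf were at -0.37 (SE 0.17) and -0.15 (SE 0.08), and the precursor genes Cacng4 and Matn4 at -0.12 and -0.14. Sox8 lay from -0.57 to -0.02 in mutants and from 0.02 to 0.20 in wild types, a separation that 2.46% of all genes had. It too is named for its small p. Ninj2 was at 0.17 and the small heat shock protein gene Cryab at 0.13.

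In older hippocampi, 45 of the 64 further genes were below 0, against 54.7% of all genes, with a median of -0.05. None passed the adjusted threshold, while 7 of 64 had an unadjusted p under 0.05 (5 lower, 2 higher), against 6.55% of all genes. In the cerebellum 30 of 64 were below 0, against 47.4% of all genes.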

How the data were processed

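Total RNA extracted with Trizol was turned into biotin-labelled cRNA and hybridised to Affymetrix arrays (labels' protocols). The submitters' processing notes name GCOS 4.0, and how probes were summarised and arrays normalized was not given in the sources used here. The deposited values are on a log scale, taken as log2. If it is the natural log, every difference has to be multiplied by 1.44. The free text of the hippocampus samples names cerebellum, but title, source and tissue say hippocampus, which was followed.

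Of 45101 probe sets, 64 controls and 133 with an empty value were left out, among them 1 of Mbp. The mean over probe sets with a single symbol in the platform annotation gave 18168 genes. These were fitted with limma 3.58.1 (R 4.3.3) across all 16 arrays in two-sided tests. p-values were adjusted over all genes by Benjamini-Hochberg, with 0.05 as the threshold, and the fit was tested on simulated data. Age class was tested with genotype in the model. Group values are mean ± SD. The number of arrays limits precision, and the median SE of a member's genotype difference was 0.12. The tests measure only the spread between these arrays. Members, gene lists and alternatives were chosen with earlier results of these data known. All members are named, with the 2 genes of smallest p per list and region and the 5 genes most like the members per region. Alternatives changed the probe set summary, normalization, variance model, age term, block and arrays used.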

Additional observations from a re-analysis of the deposited data

Results flagged for a closer look

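On wild-type cerebellum replicate 3, Ndrg1 was at 0.30 and Ugt8a at 0.28, each far above the other 3 wild-type cerebellum arrays, which lay between -0.04 and -0.03 for Ndrg1 and between -0.05 and -0.03 for Ugt8a. The gap to the nearest array was 0.953 of the group's range for Ndrg1 and 0.950 for Ugt8a. The 9 members in the 4 groups gave 36 sets of 4 arrays, and chance flags about 1 in 20. The 2 flags among the 36 sets are near that share, and both fall on this array. The sets share their arrays, so they are not independent. The array also had 77 empty values and the widest spread over all genes in its region, and their part in these values was not tested.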

How the results depend on the processing

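No member passed the adjusted threshold under any alternative run, and the smallest adjusted p of a member was 0.078. Signs were less stable: 18 of 114 member values in the cerebellar genotype comparison and 12 of 114 in the hippocampal one took the other sign under settings other than leaving out an array. The log base and the missing levels limit all values.

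Counts of genes called, 0 as reported, changed in some settings. In the hippocampus the genotype comparison called 1 gene after quantile normalization, 2 with robust variances, 4 in younger mice only and 2 without arrays with raised neighbouring-tissue markers. The age comparison there called 27 genes after quantile normalization, 3 with arrays centred on their median, 4 with robust variances and 20 with age in months as a slope, and the cerebellar one 6 after quantile normalization. Leaving out each array in turn gave 0 to 7 calls for genotype in hippocampus, 0 to 1 for the difference between regions and 0 to 7 for age in hippocampus; the 7 came without wild-type replicate 2 for genotype and without mutant replicate 2 for age. Why these counts changed was not tested.

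A replicate block was fitted because the groups share replicate numbers. Deviations of arrays with the same number correlated between -0.19 and 0.23. Arrays of unlike number were not compared, so these values cannot tell whether the numbers pair the samples. Ages of a genotype and number were the same in both regions. The main fit left the samples unpaired, and the block spans both genotypes, so it is no block of mice. With the block, 0 genes were called in the genotype comparisons and their difference, and Ndrg1 in hippocampus was at 0.31 (limma adjusted p = 0.59).

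Single probe sets gave the other sign as follows. For genotype in cerebellum they were at 0.041, 0.023, 0.061 and 0.055 for Mbp, 0.10 and 0.038 for Mobp, 0.022 for Cnp, 0.20 for Ndrg1 and 0.050 for Ugt8a. For genotype in hippocampus they were at -0.017 and -0.075 for Mbp, and for the difference between regions at -0.031 for Mbp and -0.087 for Mobp. For age in cerebellum they were at -0.019, -0.071 and -0.0039 for Mbp, -0.019 and -0.13 for Mobp, 0.017 and 0.0058 for Cnp and -0.029 for Mal, and for age in hippocampus at 0.0034 and 0.0015 for Mbp. The median over probe sets gave 0.012 for Cnp for age in cerebellum.

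Quantile normalization turned the sign to 0.011 for Mog, 0.0015 for Ndrg1 and 0.0061 for Ugt8a for genotype in cerebellum, to 0.023 for Mog, -0.0014 for Mobp and 0.0031 for Cnp for age in cerebellum, and to 0.036 for Cldn11 for age in hippocampus. Centring arrays on their median gave 0.00020 for Cldn11 for age in hippocampus, and an age slope gave -0.00048 for Mobp in cerebellum. In older mice only, cerebellar genotype values were 0.015 for Mbp, 0.11 for Mog, 0.015 for Mobp, 0.064 for Ndrg1 and 0.018 for Ugt8a, and hippocampal ones -0.022 for Mbp and -0.094 for Cldn11. In younger mice only, the cerebellar value was -0.10 for Mal. Without arrays with raised neighbouring-tissue markers, hippocampal values were -0.053 for Mbp, -0.28 for Mog, -0.13 for Mag, -0.14 for Mobp, -0.23 for Cnp, -0.29 for Mal, -0.16 for Cldn11 and -0.083 for Ugt8a.

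Leaving out each array in turn crossed 0 in these results. For genotype in cerebellum the values ran from -0.029 to 0.012 for Mbp, -0.067 to 0.092 for Mog, -0.042 to 0.0079 for Mobp, -0.037 to 0.044 for Mal, -0.063 to 0.053 for Ndrg1, -0.22 to 0.039 for Cldn11 and -0.078 to 0.055 for Ugt8a. For genotype in hippocampus they ran from -0.016 to 0.15 for Mobp. For age in cerebellum they ran from -0.0019 to 0.036 for Mbp, -0.083 to 0.11 for Mog, -0.019 to 0.029 for Mobp, -0.11 to 0.076 for Cnp, -0.026 to 0.063 for Mal, -0.13 to 0.022 for Ndrg1 and -0.23 to 0.079 for Cldn11. For age in hippocampus they ran from -0.16 to 0.015 for Mag and -0.17 to 0.085 for Cldn11.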

Other observations

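With age in the hippocampus, 19 of the 64 further oligodendrocyte genes were above 0, opposite to the members, and 2 of these had an unadjusted p under 0.05. They are described here after their values were seen. Klk6, a secreted protease of oligodendrocytes, lay between 0.08 and 1.33 in the 4 older and between -1.24 and -0.08 in the 4 younger hippocampi, a difference of 1.00 (SE 0.25, unadjusted p = 0.0013, limma adjusted p = 0.38). Apod, a lipid-binding lipocalin, lay between 0.04 and 0.41 in the older and between -0.18 and -0.05 in the younger mice, a difference of 0.32 (SE 0.07, unadjusted p = 0.00061, limma adjusted p = 0.27). In both genes every older hippocampus was above every younger one, which 3.5% of all genes showed in either direction, and neither passed the adjusted threshold. In the cerebellum Apod was at 0.20 (SE 0.07, limma adjusted p = 1.00) and Klk6 at -0.0029 (SE 0.25). The genes of smaller value in older hippocampi at an unadjusted p under 0.05 were Gamt (-0.25), which makes creatine, Gpr37 (-0.26), Anln (-0.25), Ninj2 (-0.22) and Omg (-0.21). In the same comparison, 7 of the 8 microglial markers were above 0, from -0.18 to 0.55 with a median of 0.13, and 8 of 8 astrocyte markers, from 0.01 to 0.66 with a median of 0.09. In each list 3 of 8 markers had an unadjusted p under 0.05, against 6.55% of all genes. None passed the adjusted threshold (smallest limma adjusted p = 0.12 and 0.19). Of all genes 54.7% were below 0. Both lists were highest on wild-type replicate 1, the oldest mouse, at 0.25 and 0.29. Granule neuron markers were at 2.71 on that array, and its part in these values was not tested.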
